A study of Mus musculus with 6 samples.

Results

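The 83 genes described here encode the nuclear subunits of the mitochondrial respiratory chain, and they are 83 of the 18193 genes measured. They were chosen by symbol: Nduf, Sdh (a to d), Uqcr, Cox4 to Cox8 or Atp5, plus Cyc1 and Cycs, each with a probe set annotated to 1 gene only. A total of 33 belong to complex I, 4 to complex II, 9 to complex III, 18 to complex IV and 17 to complex V. Cycs, which encodes cytochrome c, and Ndufa4l2, a paralogue of the complex IV subunit gene Ndufa4, complete the list. The rule itself uses no measured value. The Sdhaf genes, whose symbols also begin with Sdha, encode assembly factors and were counted with those.

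The cells were RAW264.7, an established mouse macrophage line that can form osteoclasts. They were kept for 24 h in medium with 137 mmol/l sodium (normal, 3 arrays) or 120 mmol/l sodium (low, 3 arrays). The low-sodium medium was the normal medium diluted and brought back to 290 mOsm/l with mannitol, so the groups differ in mannitol as well as in sodium. Beside the low-sodium medium the labels list the cytokines RANKL (30 ng/ml) and M-CSF (10 ng/ml), in wording that does not settle whether the normal-sodium cells received them. The labels speak of 4 biological replicates in each group, and 3 in each were analysed here. Biotin-labelled material made from total RNA was measured on Affymetrix mouse arrays. Values below are log2(intensity + 1), and differences are low minus normal sodium on that scale.

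Complex I oxidises NADH and complex II oxidises succinate, and both pass electrons to ubiquinone. Complex III moves them on to cytochrome c, and complex IV gives them to oxygen. Complexes I, III and IV pump protons across the inner membrane, and complex V, the ATP synthase, lets the protons return and makes ATP. Most subunits are encoded in the nucleus and a few of complexes I, III, IV and V by mitochondrial DNA, so the complexes need both genomes. Osteoclasts are known for abundant mitochondria.

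Upstream sequence of the members was read because many of these genes are known targets of ETS family factors (GABP among them), NRF1, YY1 and ERR. A total of 67 of the 83 members had an entry in the RefSeq promoter table (GRCm38.p6), and the 250 bases before the start site were searched on both strands. The ETS letters CCGGAAG stood upstream of 12 of the 67 members (17.9%) and of 7.83% of all 27025 genes in the table. Those 12 were Ndufb6, Ndufb7, Ndufs3, Sdhd, Uqcr11, Uqcrh, Cox6a1, Cox6b1, Atp5e, Atp5h, Atp5j and Atp5l. The palindromic NRF1 motif stood upstream of 3 (4.48%) against 0.877%, and the ERR letters AAGGTCA upstream of 5 (7.46%) against 4.7%. YY1 letters AAGATGGCG were found for 1 member (1.49%, against 0.71%), CCAAT for 29 (43.3%, against 37.5%) and TATAAA for 7 (10.4%, against 14.3%). A match is a description of letters and not a site in use.

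The 4 sequences below show the ETS letters in 1 gene each of complexes I, III, IV and V. They are the 250 bases upstream of Ndufb7 (chr8:83566508-83566757, plus strand), Uqcr11 (chr10:80406822-80407071, minus strand), Cox6a1 (chr5:115348959-115349208, minus strand) and Atp5e (chr2:174464102-174464351, minus strand), printed 5′ to 3′ along the gene. Capitals mark motif letters on either strand. Beside the ETS letters these are TATAAA read on the other strand in Ndufb7, the NRF1 motif and CCAAT in Cox6a1, and CCAAT, once on each strand, in Atp5e.
Ndufb7: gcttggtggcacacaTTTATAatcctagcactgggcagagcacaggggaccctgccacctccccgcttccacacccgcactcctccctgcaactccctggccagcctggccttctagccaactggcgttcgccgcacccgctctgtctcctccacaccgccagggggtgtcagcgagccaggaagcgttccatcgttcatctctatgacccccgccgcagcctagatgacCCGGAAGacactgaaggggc
Uqcr11: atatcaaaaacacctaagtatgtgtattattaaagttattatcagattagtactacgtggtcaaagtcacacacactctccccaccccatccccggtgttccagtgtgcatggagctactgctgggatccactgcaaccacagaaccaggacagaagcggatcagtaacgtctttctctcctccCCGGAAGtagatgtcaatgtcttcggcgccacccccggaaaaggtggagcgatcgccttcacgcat
Cox6a1: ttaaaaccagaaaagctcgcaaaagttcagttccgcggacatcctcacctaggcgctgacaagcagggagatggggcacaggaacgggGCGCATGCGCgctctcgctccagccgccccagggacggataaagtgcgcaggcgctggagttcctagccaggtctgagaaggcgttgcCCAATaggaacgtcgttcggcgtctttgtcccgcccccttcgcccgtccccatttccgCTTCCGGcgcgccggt
Atp5e: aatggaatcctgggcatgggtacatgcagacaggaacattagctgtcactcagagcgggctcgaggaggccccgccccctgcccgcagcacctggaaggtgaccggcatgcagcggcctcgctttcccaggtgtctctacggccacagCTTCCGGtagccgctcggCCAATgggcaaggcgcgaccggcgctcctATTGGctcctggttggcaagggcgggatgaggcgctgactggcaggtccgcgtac

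Spiked controls set both replicate 3 arrays apart. Spiked Bacillus transcripts, which are added to the RNA before labelling, had a mean of 10.04 to 10.33 on the 4 arrays of replicates 1 and 2 and of 8.36 on both replicate 3 arrays, while the hybridisation controls lay between 12.02 and 12.29 on all 6. The 3′ minus 5′ difference of the spiked dap transcript was 0.96 to 1.06 on the former and 2.94 to 3.07 on the latter. For Actb, a cell transcript, it was 0.20 to 0.29 and 0.08 to 0.09. Replicates 1 and 2 are therefore given apart from replicate 3, and the contrast between them is called the array set, since the labels name no batch. Within replicate 3 there is 1 array per group and no replicate. All 9 macrophage markers were above the median of all probe sets, with a summed intensity of 108850 to 115217 in normal and 114963 to 124823 in low sodium, and 3 of 4 fibroblast markers were below it. Osteoclast markers summed to 645 to 1779 in normal and 1259 to 4419 in low sodium. In the array-set fit Dcstamp (1.52), Ctsk (1.15) and Mmp9 (1.05) rose among the 6 osteoclast markers and Adgre1 (0.96) among the macrophage markers. Other markers went the other way. Of the 6 osteoclast markers, 2 were lower in low sodium in replicates 1 and 2 and 2 in replicate 3. Of the 9 macrophage markers, 2 and 5 were lower there. The part of these markers in the results below was not tested. The labels call the samples biological replicates without saying how cultures were kept apart, and the p-values measure the spread between these samples, which may be partly technical. In RNA from whole cultures, fewer cells of a type and less RNA per cell cannot be told apart.

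Across the 6 arrays, the median difference over respiratory chain members was -0.08, beside -0.01 over all genes. The plain limma comparison called 0 of 83 members, and 1 of all 18193 genes (0.00550%). At an unadjusted p under 0.05 it held 1 member, Cox6a2, and 8.15% of all genes. With an array-set term and a trended prior, limma called 4 of 83 members against 7.60% of all genes. Among the 1101 genes with a mean of at least 12 it called 24.3%, of which 11.6% fell and 12.6% rose as shares of the 1101. Of the members, Atp5o (complex V), Ndufb10 (complex I) and Uqcrfs1 (complex III) fell, against 3.81% of all genes, and Cox6a2 (complex IV) rose, against 3.78%. This second fit was chosen in earlier work on these arrays after its counts had been seen. With the constant prior it called 0 members and 0.0110% of all genes, with the replicate number as a block it called Atp5o only (adjusted p = 0.046), and it called 0 members when any 1 of the 4 arrays of replicates 1 and 2 was left out. Below, "rose" and "fell" refer to the array-set fit unless replicates 1 and 2 are named.

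In the deposited scaling, the members as a group lay lower in low sodium in replicates 1 and 2 and not in replicate 3. Their median was 12.62 and 12.63 on normal arrays 1 and 2 and 12.40 and 12.48 on low arrays 1 and 2, and on the replicate 3 arrays it was 13.01 in normal and 13.12 in low sodium. Over members the median difference came to -0.14 in the former pair and to 0.02 in replicate 3, beside 0.02 and -0.06 over all genes. In replicates 1 and 2, 72 of 83 members were lower in low sodium (86.7%), against 47.7% of all genes and 58.8% of the 1101 genes with a mean of at least 12. Both low arrays lay below both normal arrays for 64 of 83 members (77.1%), against 25.4% of all genes and 47.7% of those 1101. The reverse held for 5 members, Ndufa13, Ndufa7, Cox6a2, Cox7a1 and Cox8c, against 27.5% of all genes. In replicate 3, 36 of 83 members were lower, against 53.8% of all genes. Over all 6 arrays the groups did not overlap for Ndufb1 and Atp5h, which were lower (9.07% of all genes), and for Cox6a2, which was higher (8.44%).

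**Figure D1:**
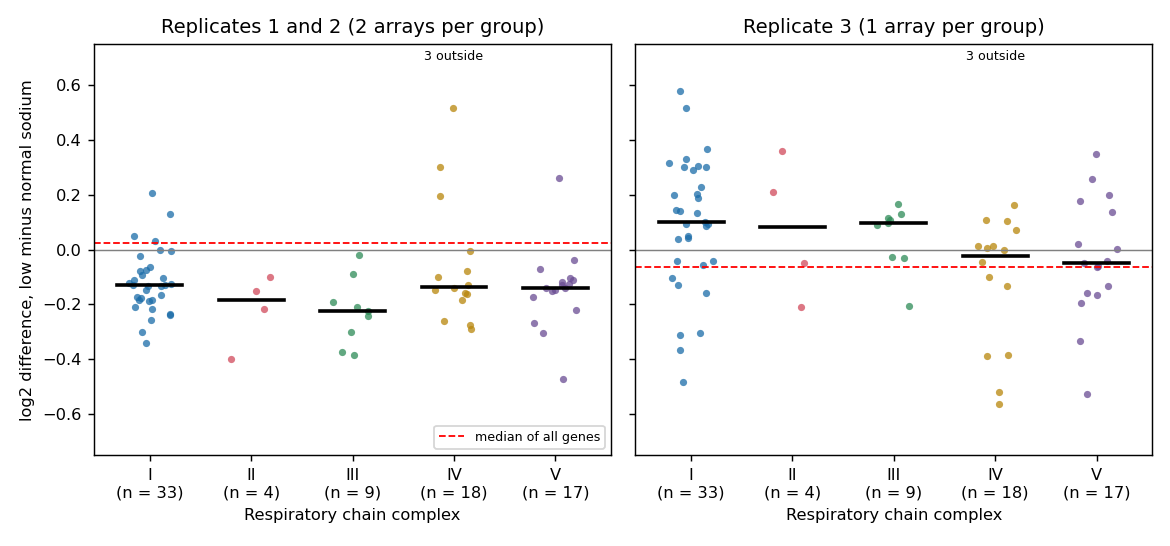
Each point is 1 subunit gene, placed by its complex on the horizontal axis and by its log2 difference, low minus normal sodium, on the vertical axis, in replicates 1 and 2 (left) and replicate 3 (right). Black bars are medians and the dashed line is the median of all genes; all 5 bars lie below it on the left, and all 5 lie above it on the right, with 3 complex IV genes outside each panel.

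Limma on replicates 1 and 2 alone (2 arrays per group), with a trended prior, called 26 of 83 members (31.3%) against 14.9% of all genes. Among the genes with a mean of at least 12 it called 47.3%, a larger share than among the members. This fit was not repeated with a constant prior. With that prior, the array-set fit and the interaction fit given below called 0 members, so these calls may depend on the prior too. Of the 26 members, 25 were lower (30.1%), against 7.60% of all genes and 25.2% of the genes with a mean of at least 12. Cox6a2 was the 1 member called higher, against 7.27% of all genes and 22.2% of the genes with a mean of at least 12. The called lower members were 9 of 33 in complex I, 2 of 4 in complex II, 6 of 9 in complex III, 5 of 18 in complex IV and 3 of 17 in complex V. Median differences there were -0.13 for complex I, -0.18 for complex II, -0.22 for complex III, -0.13 for complex IV and -0.14 for complex V. In replicate 3 the corresponding medians were 0.10, 0.08, 0.10, -0.02 and -0.05. Single members spanned -0.34 to 0.21 in complex I, -0.40 to -0.10 in complex II, -0.39 to -0.02 in complex III, -0.91 to 1.23 in complex IV and -0.47 to 0.26 in complex V in replicates 1 and 2. In replicate 3 they spanned -0.48 to 0.58, -0.21 to 0.36, -0.21 to 0.17, -1.23 to 3.61 and -0.53 to 0.35. The ends of the complex IV range were Cox8b, Cox7b2 and Cox6a2, of which the former 2 were dim. No test of complexes against each other was made, since their members share the same 6 arrays.

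Scaling moved these medians. Centring each array on its median moved the differences of all genes alike, by -0.12 in replicates 1 and 2 and by 0.23 in replicate 3, so values relative to all genes do not depend on it. Members were 0.16 below the median of all genes in replicates 1 and 2, and 0.13 below after quantile normalisation. In replicate 3 they were 0.08 above that median, but 0.05 below it after quantile normalisation, so the direction there depended on the scaling. The genes with a mean of at least 12 had a median of 0.03 in replicate 3 with 45.4% lower, beside 0.02 and 43.4% for the members, and a median of -0.05 in replicates 1 and 2.

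Ndufb10, an accessory subunit of the membrane arm, was the complex I member that fell. It read 11.85, 11.95 and 12.42 on the normal arrays and 11.60, 11.61 and 12.12 on the low arrays. The low arrays were lower within each array set, although the replicate 3 low array lay above all normal arrays of replicates 1 and 2. The difference was -0.30 ± 0.06 (SE, 3 arrays per group; limma adjusted p = 0.0321 with the array-set term and 0.821 without).

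The other complex I members called lower in replicates 1 and 2 included catalytic and structural subunits. Ndufb5 read 12.62 and 12.74 in normal and 12.35 and 12.33 in low sodium there, a difference of -0.34, and 13.01 and 13.06 in replicate 3. Ndufs1, which encodes the largest of the iron-sulfur subunits, read 11.69 and 11.73 against 11.40 and 11.55 in replicates 1 and 2. In replicate 3 it read 11.87 in normal and 12.23 in low sodium, so its direction turned. Ndufs7, an iron-sulfur subunit near the ubiquinone site, gave -0.21 and 0.29, and Ndufa10 gave -0.23 and 0.09, in replicates 1 and 2 and in replicate 3. Ndufs4, Ndufc1, Ndufb7 and Ndufb6 were also called lower in replicates 1 and 2, by differences of -0.22, -0.19, -0.18 and -0.17. A second Ndufc1 probe set of similar brightness gave 0.08 there, with both low arrays above both normal arrays. The flavoprotein gene Ndufv1, whose product binds NADH, differed by -0.26 there without passing (adjusted p = 0.137).

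Ndufa13 and Ndufa7 of complex I ran the other way. Ndufa13, an accessory subunit also known as GRIM-19, read 12.17, 12.22 and 12.73 on the normal arrays and 12.32, 12.33 and 13.31 on the low arrays. It was higher in low sodium within each array set, with a difference of 0.28 ± 0.10 that did not pass (limma adjusted p = 0.144). Ndufa7 read 12.75, 12.46 and 13.10 in normal and 12.81, 12.82 and 13.40 in low sodium, and its 0.24 ± 0.08 did not pass either (adjusted p = 0.149). Ndufb1, by contrast, was lower in low sodium in each array set. It read 8.84, 8.93 and 8.99 against 8.65, 8.75 and 8.51, with all low arrays below all normal arrays. The difference was -0.28 ± 0.13 (limma adjusted p = 0.253). Ndufb4, read by 1 probe set only, was dim, that is with both group means below 5.87, the median of all probe sets. Whether that reflects the probe set or the transcript was not tested.

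Ndufb8 differed in direction between its probe sets. The brighter probe set read 13.06, 12.94 and 13.17 in normal and 12.82, 12.84 and 13.69 in low sodium. In replicates 1 and 2 low sodium stood at -0.17 relative to normal, and in replicate 3 at 0.52. The other probe set gave -0.79 and -2.31. Both probe sets were lower in low sodium in replicates 1 and 2, and they opposed each other in replicate 3.

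Complex II is the only complex made wholly from nuclear genes and is also an enzyme of the citrate cycle. Sdhd, a membrane anchor, read 12.66, 12.43 and 12.94 in normal and 12.18, 12.11 and 12.73 in low sodium. It was lower in each array set, and its -0.34 ± 0.08 narrowly missed the threshold (limma adjusted p = 0.0547), while in replicates 1 and 2 alone it passed (adjusted p = 0.0134). Sdha, the flavoprotein that oxidises succinate, read 12.46, 12.53 and 12.64 against 12.24, 12.32 and 12.86. It was called lower in replicates 1 and 2 and was higher in low sodium in replicate 3. Sdhb, the iron-sulfur subunit, read 12.53, 12.58 and 13.45 against 12.29, 12.51 and 13.81, and the second anchor Sdhc read 12.62, 12.62 and 12.94 against 12.56, 12.48 and 12.89. Neither passed in any comparison of low with normal sodium. By their chosen probe sets the 2 anchors were lower in low sodium in both array sets. A second Sdhc probe set, with a mean of 12.25, gave 0.03 in replicates 1 and 2 and 0.11 in replicate 3, opposite to the chosen one.

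In complex III all 9 members were lower in low sodium in replicates 1 and 2, and 3 of 9 in replicate 3. Uqcrfs1, the Rieske iron-sulfur protein, read 12.61, 12.65 and 12.93 in normal and 12.23, 12.29 and 12.72 in low sodium. It fell by 0.32 ± 0.07 on the log2 scale (limma adjusted p = 0.0316 with the array-set term and 0.771 without), which is a 1.25-fold lower level. Cyc1, which encodes cytochrome c1, read 13.33, 13.19 and 13.39 against 12.85, 12.90 and 13.48. It was 0.39 lower in replicates 1 and 2, where it was called, and 0.09 higher in replicate 3. The core subunits Uqcrc1 and Uqcrc2 were called lower in replicates 1 and 2 by differences of -0.24 and -0.21, and Uqcr10 and Uqcrh by -0.30 and -0.22. Uqcrb, which read 14.41, 14.39 and 14.50 against 14.36, 14.41 and 14.62, and Uqcrq and Uqcr11 were not called.

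Cycs, the mobile carrier between complexes III and IV, read 14.05, 14.15 and 13.61 in normal and 14.07, 14.03 and 13.62 in low sodium. Its difference was -0.03 ± 0.06 (limma adjusted p = 0.835), and the groups overlapped. It was lower on the replicate 3 arrays than on the others in both media. Another 2 probe sets of Cycs that were not dim gave -0.28 and -0.23 in replicates 1 and 2, with both low arrays below both normal arrays, and 0.08 and -0.16 in replicate 3. The probe sets therefore differ in size, and the chosen one has the smallest difference in replicates 1 and 2.

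In complex IV the clearest value belonged to a tissue-restricted isoform. Cox6a2, the heart and skeletal muscle isoform of subunit VIa, read 9.05, 9.05 and 7.73 on the normal arrays and 10.35, 10.21 and 11.33 on the low arrays. All low arrays lay above all normal arrays. It rose by 2.03 ± 0.42 (SE, 3 arrays per group), a 4.07-fold change (limma adjusted p = 0.0313 with the array-set term and 0.440 without). Replicates 1 and 2 gave a 2.35-fold and replicate 3 a 12.2-fold change. Its second probe set read 6.18, 5.96 and 4.91 in normal and 7.49, 7.88 and 8.73 in low sodium, again without overlap. Of 3 muscle markers (Myh1, Ckm and Actn2) 2 were dim, and they summed to 119 to 194 in normal and 123 to 198 in low sodium.

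The widely expressed isoform Cox6a1, whose upstream sequence is printed above, read 14.25, 14.16 and 14.49 in normal and 14.03, 14.02 and 14.45 in low sodium. It was called lower in replicates 1 and 2 (difference -0.18, adjusted p = 0.0312), the opposite direction to Cox6a2. Cox4i1 was called lower there too, by -0.14, while its oxygen-responsive isoform Cox4i2 read 6.76, 6.67 and 6.61 against 6.63, 6.48 and 5.68 and was not called. Cox8a read 13.18, 13.05 and 13.69 against 12.79, 12.86 and 13.80 and was called lower in replicates 1 and 2 by -0.29. Cox8c read 8.54, 9.31 and 7.95 against 9.42, 9.45 and 8.11 and was not called, and Cox8b was dim.

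The remaining isoform pairs showed no call for the restricted forms. Cox7a1, the muscle form of subunit VIIa, read 7.21, 7.22 and 8.06 in normal and 7.63, 7.39 and 7.54 in low sodium, with overlapping groups. Cox7a2 differed by -0.15 in replicates 1 and 2 and 0.07 in replicate 3. Cox7a2l, known for joining complexes III and IV into supercomplexes, read 11.98, 11.92 and 12.79 against 11.65, 11.70 and 12.66. It was called lower in replicates 1 and 2 (difference -0.28), and all 3 of its probe sets were lower in low sodium in each array set. Cox6b1 gave -0.08 and 0.11 in the array sets, and Cox6b2, a testis form, and Cox7b2 were dim.

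Ndufa4, once counted in complex I and now placed in complex IV, read 12.70, 12.63 and 13.55 in normal and 12.39, 12.42 and 13.55 in low sodium. It was called lower in replicates 1 and 2 by -0.26 and differed by less than 0.01 in replicate 3. Its paralogue Ndufa4l2, known as a hypoxia-induced gene, read 6.22, 6.92 and 6.62 against 6.85, 6.91 and 3.76. The groups overlapped, and the replicate 3 low array alone stood far below the rest.

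In complex V the peripheral stalk subunit Atp5o, the oligomycin sensitivity conferring protein, read 12.87, 12.99 and 13.53 in normal and 12.43, 12.49 and 13.19 in low sodium. It was lower in each array set and fell by 0.42 ± 0.07 on the log2 scale (limma adjusted p = 0.0121 with the array-set term and 0.786 without), a 1.34-fold lower level. A second probe set gave -0.32 in replicates 1 and 2 and -1.02 in replicate 3. Atp5mpl and Atp5a1, the latter a catalytic-head subunit, were called lower in replicates 1 and 2 by -0.27 and -0.17. Another 2 Atp5a1 probe sets gave 0.02 and 0.11 there, opposite to the chosen one. The other head subunit Atp5b gave -0.13 and 0.02 in the array sets, and Atp5c1, the central rotor shaft, gave -0.14 and 0.35.

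The 3 genes for the proton-carrying c subunit encode the same mature protein. Atp5g1 read 12.78, 12.63 and 13.27 in normal and 12.29, 12.52 and 13.11 in low sodium. Its -0.26 ± 0.09 did not pass (limma adjusted p = 0.128). Atp5g3 was lower in low sodium in each array set, by -0.12 and -0.16, and Atp5g2 gave -0.12 and 0.20; none of the 3 was called. Atp5h, a stalk subunit, read 13.33, 13.50 and 13.31 against 13.25, 13.14 and 13.18, without overlap, and its -0.19 ± 0.07 did not pass (adjusted p = 0.17). Atp5j2 gave -0.15 and -0.20. Atp5md gave 0.26 and -0.53, so low sodium was the higher group in replicates 1 and 2 and the lower in replicate 3, and its groups overlapped.

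**Figure D2:**
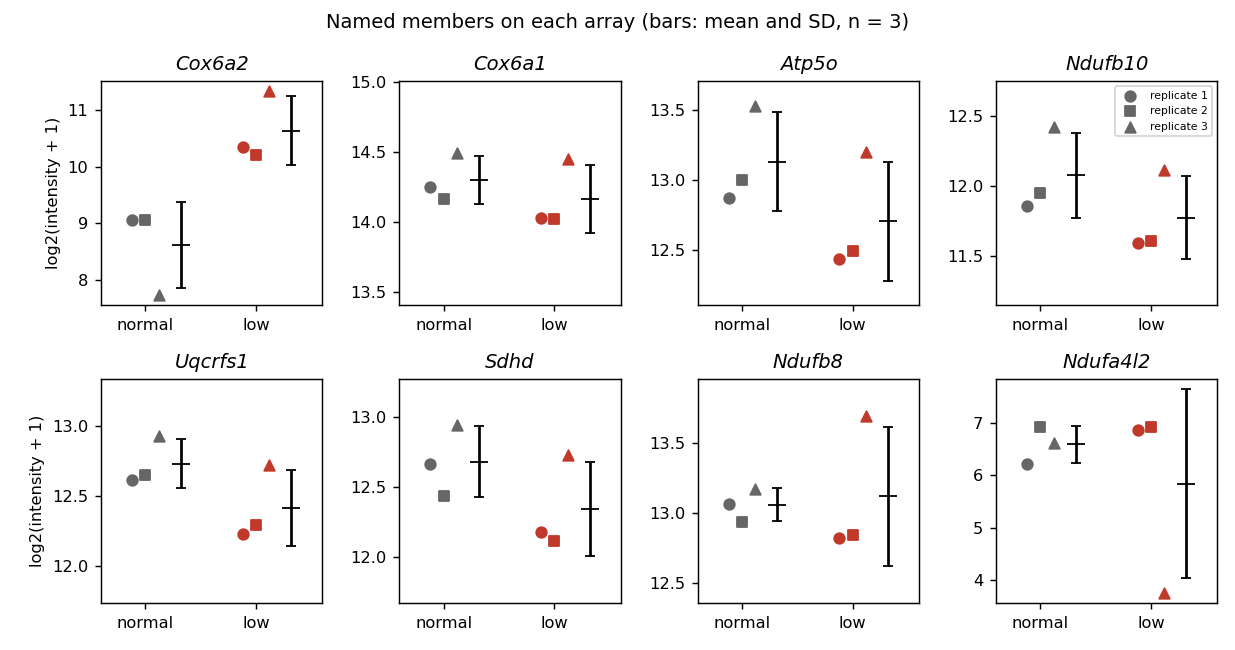
Log2(intensity + 1) of 8 genes on each of the 6 arrays, with normal sodium in grey and low sodium in red, 1 symbol per replicate number, and the mean and SD (n = 3) beside the points. Each panel has its own vertical axis; Cox6a2 shows no overlap, Atp5o, Ndufb10, Uqcrfs1 and Sdhd are lower within each array set, and Ndufa4l2 has a single low point at 3.76.

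The medium difference itself was then compared between array sets. The interaction in limma called 23 of 83 members (27.7%) against 10.1% of all genes, and 29.0% of the genes with a mean of at least 12. The residual spread came from replicates 1 and 2, so the test assumes that replicate 3 varied alike, and with a constant prior it called 0. The difference in replicate 3 was the higher for 22 of the 23 (26.5% of members, against 4.75% of all genes and 19.1% of the genes with a mean of at least 12) and the lower for Ndufa4l2 (against 5.35% of all genes). Complex I held 12 of them, complex II 1, complex III 3, complex IV 2 and complex V 4. Largest among the members that passed, other than Cox6a2 and Ndufa4l2, were Ndufb8 (0.68 ± 0.09 SE) and Ndufs1 (0.61 ± 0.11).

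In the deposited scaling, being lower in replicates 1 and 2 and higher in replicate 3 was the commonest pattern. Members lower in replicate 3 numbered 36 there, 45 after quantile normalisation and 13 after array centring, so the pattern's counts depend on scaling. As deposited, the pattern held for 43 of 83 members (51.8%) against 17.6% of all genes and 22.2% of the genes with a mean of at least 12. By complex it held for 21 of 33 in complex I, 2 of 4 in complex II, 6 of 9 in complex III, 6 of 18 in complex IV and 7 of 17 in complex V. Another 29 members were lower in both array sets, 9 of them in complex V. The members also read higher on the replicate 3 arrays than on the others in either medium, with a median of 0.45 above and 69 of 83 positive, while the median was -0.16 over all genes and 0.11 over the genes with a mean of at least 12. Whether this shift bears on the turn in direction was not tested.

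**Figure D3:**
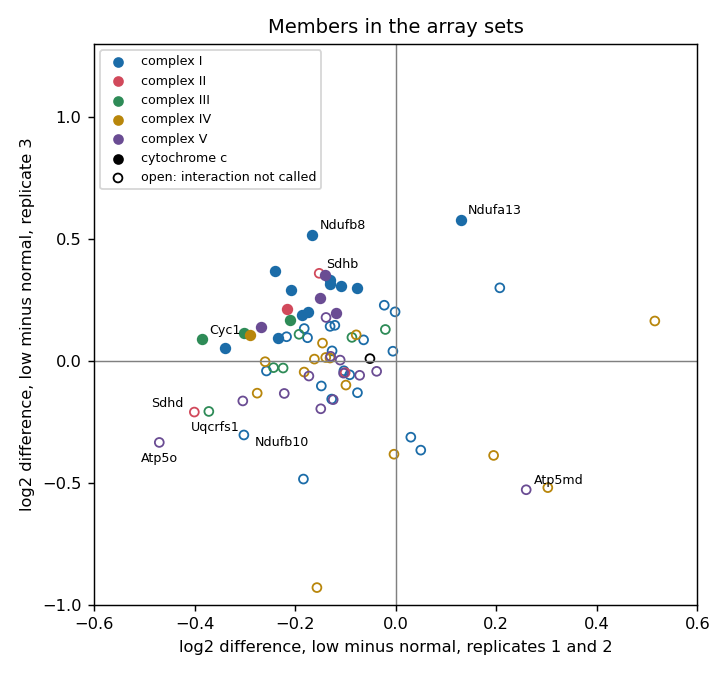
Each point is 1 member, with its log2 difference, low minus normal sodium, in replicates 1 and 2 on the horizontal axis and in replicate 3 on the vertical axis, coloured by complex. Filled points passed the interaction test in limma; 79 of 83 members are shown, and most filled points lie in the upper left, lower in replicates 1 and 2 and higher in replicate 3.

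**Figure D4:**
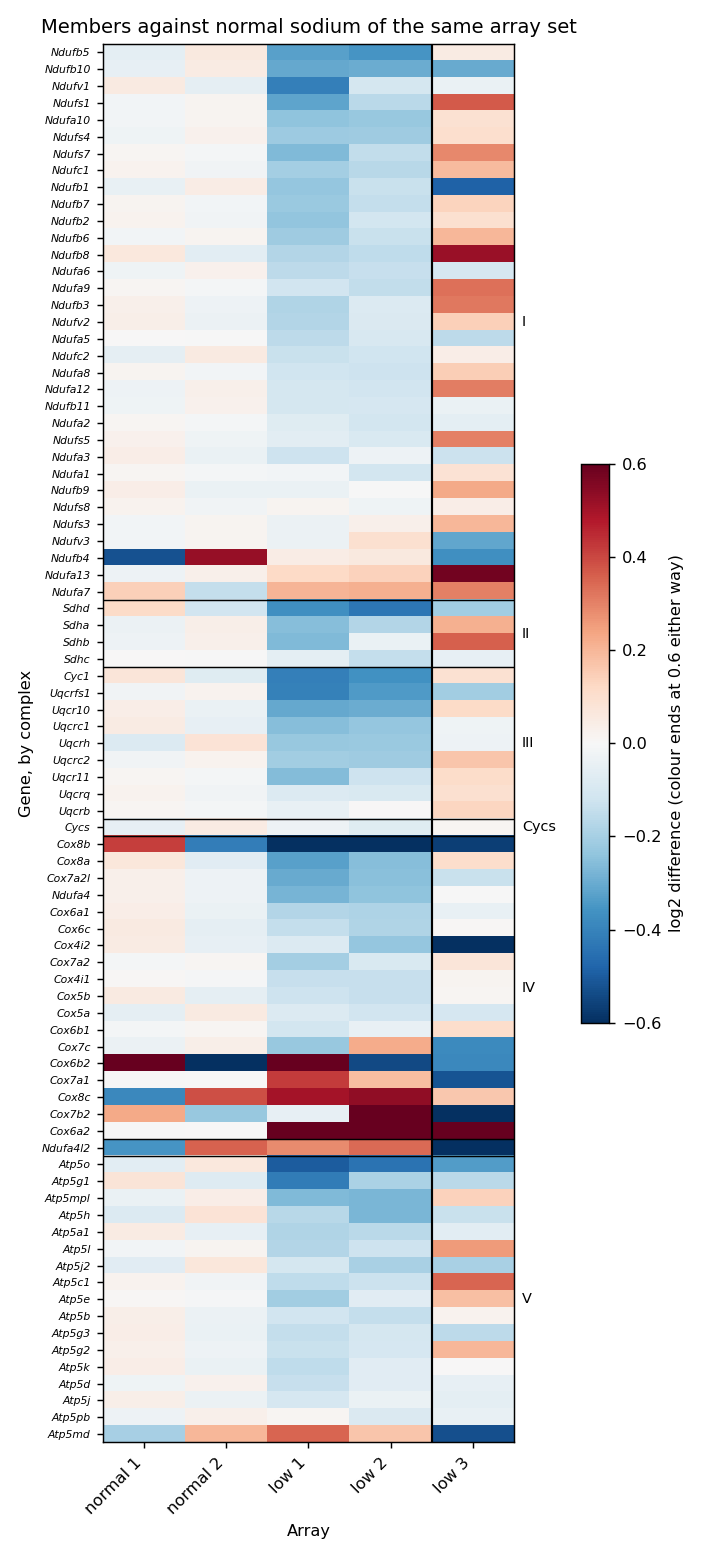
Rows are the 83 members by complex and columns are arrays, with colour giving the log2 difference from the normal-sodium arrays of the same array set, ending at 0.6 either way. The low 1 and low 2 columns are mostly blue (lower), and the low 3 column, set against the 1 normal array of replicate 3, is mixed and mostly red in complex I.

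Other probe sets of the members gave similar shifts. Of 86 further probe sets 72 were not dim, over 47 genes, and they gave median differences of -0.16 (replicates 1 and 2) and 0.02 (replicate 3). In replicates 1 and 2, 53 of the 72 were lower and 57 had the sign of the chosen probe set. In replicate 3, 33 were lower and 44 had the same sign. For the 26 members called in replicates 1 and 2, 18 of 22 such probe sets had the sign of the chosen one, and the 4 that did not belonged to Ndufa10, Ndufc1 and Atp5a1. These probe sets measure the same RNA extracts and are not independent samples.

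Genes around the respiratory chain were counted from lists, and the plain limma fit called 0 of 93 of them. The array-set fit called 6 (6.45%), which is below its 7.60% of all genes. The 45 measured assembly factors had medians of -0.06 (replicates 1 and 2) and 0.10 (replicate 3). Cox17, the copper chaperone of complex IV, rose by 0.42 ± 0.08 (limma with array-set term, adjusted p = 0.0194), and no assembly factor fell in that fit. In replicates 1 and 2 alone, limma called 9 of the 45 lower and 1 higher, against 7.60% and 7.27% of all genes. Of 13 listed subunits encoded by mitochondrial DNA, 1 was measured. This was ND5, a proton-pumping subunit of complex I, which read 14.06, 13.97 and 13.38 in normal and 14.17, 14.21 and 14.20 in low sodium. All low arrays lay above all normal arrays, and the 0.39 ± 0.13 did not pass (adjusted p = 0.117). Its difference was larger in replicate 3 by 0.64 (interaction, adjusted p = 0.00466).

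The 16 citrate cycle genes measured had a median of -0.15 in replicates 1 and 2, where 14 of 16 were lower, and of 0.12 in replicate 3, where 4 of 16 were lower. Idh2, the mitochondrial NADP-dependent isocitrate dehydrogenase, fell by 0.46 ± 0.06 (limma with array-set term, adjusted p = 0.00680). It read 11.90, 11.92 and 12.52 in normal and 11.42, 11.49 and 12.06 in low sodium, so the low arrays were lower within each array set. Fh1, fumarase, fell by 0.36 ± 0.08 (adjusted p = 0.0351), and no citrate cycle gene rose. With replicates 1 and 2 alone, limma called 6 of the 16 lower and 0 higher, against 7.60% and 7.27% of all genes. The 16 had means of 11.1 to 14.0. Among genes with a mean of at least 12, that fit called 25.2% lower and 22.2% higher.

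Regulators of mitochondrial transcription and biogenesis were lower in both array sets, with medians of -0.19 and -0.21, and 14 and 13 of 16 lower. Tfam, which packages and transcribes mitochondrial DNA, fell by 0.40 ± 0.08 (limma with array-set term, adjusted p = 0.0242). It read 11.13, 11.16 and 10.87 in normal and 10.76, 10.85 and 10.37 in low sodium. Gabpa, the DNA-binding part of GABP, whose ETS letters are printed above, fell by 0.40 ± 0.10 (adjusted p = 0.0477). It read 10.72, 10.69 and 10.61 against 10.47, 10.35 and 9.98. For both genes the groups did not overlap, and no regulator rose. Limma on replicates 1 and 2 alone called 4 of the 16 lower and 0 higher, against 7.60% and 7.27% of all genes. Any link between Gabpa and the values of the members was not tested.

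Among 8 other dehydrogenases that feed ubiquinone, Sqor, which oxidises hydrogen sulfide, rose by 0.83 ± 0.07 (limma with array-set term, adjusted p = 0.00129). It read 10.73, 10.65 and 10.67 in normal and 11.50, 11.53 and 11.50 in low sodium, so its difference was alike in both array sets (0.82 and 0.83). The list's medians were -0.12 and 0.01. Of its 8 genes, limma on replicates 1 and 2 alone called 2 lower and 1 higher, against 7.60% and 7.27% of all genes. None of the 7 genes of ATP export and phosphate import was called in the array-set fit, and their medians were 0.03 and 0.06. In replicates 1 and 2 alone the ADP/ATP carrier Slc25a5 was called lower (difference -0.19, adjusted p = 0.0142).

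**Figure D5:**
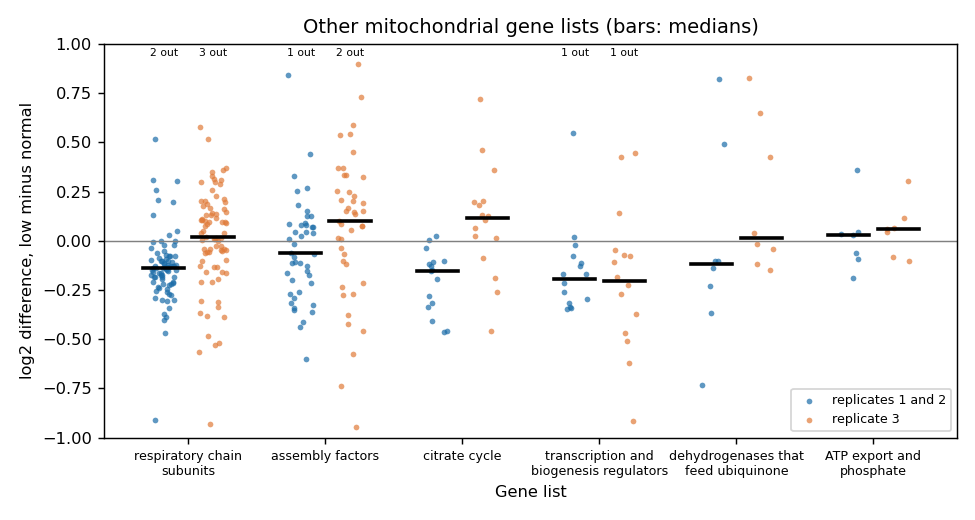
Each point is 1 gene, with its log2 difference, low minus normal sodium, on the vertical axis, in replicates 1 and 2 (blue) and in replicate 3 (orange), by gene list. Bars are medians; subunits, assembly factors and citrate cycle genes have bars below 0 in blue and above 0 in orange, while the regulators' bars are both below 0, and counts at the top give genes beyond 1 either way.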

How the data were processed

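Linear intensities were deposited for 45101 probe sets on each array. The submitters' processing notes name Partek without a version, and how probes were summarised is not stated in the sources used here. Trimmed at the 2nd and 98th percentiles, every array had a mean of 499.8, so a global scaling had been applied. Logarithms to base 2 (log2) were taken of the deposited values plus 1, and differences of dim genes depend on that. After 64 control probe sets were left out, 34945 of 45037 probe sets carried 1 gene in the platform annotation, 932 several and 9160 none. Probe sets with several genes were not used, and 9 of them named a member. For each of 18193 genes the probe set of highest mean was kept. All 83 members matched RefSeq by Entrez identifier.

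Tests were run with limma 3.58.1 in R 4.3.3 (lmFit, eBayes, two-sided, Benjamini-Hochberg over all genes, adjusted p under 0.05). The plain and array-set fits were also run on simulated data with the same medium effect in both array sets. That check does not cover a medium difference that differs between array sets. The plain fit on 6 arrays was the main one. The array-set fit adds a term for replicate 3 against replicates 1 and 2 and a trended prior. Same-numbered samples deviated together (r = 0.39, 0.38 and 0.55), although normal 1 with low 2 (0.35) and normal 2 with low 1 (0.39) did so as well. The values thus show the split by array set and no pairing by number within replicates 1 and 2. That split comes from the data, since the labels give the numbers only. Described in full were, in each complex, up to 4 members with the smallest p in the array-set fit, the largest rises and falls in each array set, complex II, Cyc1, Cycs, Ndufa4, Ndufa4l2 and the isoform groups, and of related lists up to 4 by p. Other members were named to show counts. The members' rule and the lists were set with earlier results of these data known. Alternatives changed the pseudocount, the filter on dim genes, scaling, probe set, prior, block and arrays. Precision is limited by the small number of arrays.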

Additional observations from a re-analysis of the deposited data

Results flagged for a closer look

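Some members had a medium difference that differed between array sets by the interaction test in limma (adjusted p under 0.05), which takes its spread from replicates 1 and 2 and assumes that replicate 3, with 1 array per group, varied alike. The value given is the difference, low minus normal sodium, in replicate 3 less that in replicates 1 and 2, on the log2 scale. In complex I it was 0.68 for Ndufb8, 0.61 for Ndufs1, 0.50 for Ndufs7, 0.46 for Ndufa9, 0.45 for Ndufa13, 0.45 for Ndufb3 and 0.42 for Ndufa12. It was 0.39 for Ndufb5, 0.38 for Ndufs5, 0.37 for Ndufb6, 0.37 for Ndufc1 and 0.33 for Ndufa10. Ndufa13 was higher in low sodium in both array sets, and the other 11 turned from lower to higher. In complex II it was 0.43 for Sdha. In complex III it was 0.47 for Cyc1, 0.42 for Uqcr10 and 0.38 for Uqcrc2. In complex IV it was 2.37 for Cox6a2, which was higher in low sodium in both array sets, and 0.40 for Cox8a. In complex V it was 0.49 for Atp5c1, 0.41 for Atp5l, 0.41 for Atp5mpl and 0.32 for Atp5g2. It was -3.17 for Ndufa4l2, where the low array of replicate 3, at 3.76, decides the value.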

How the results depend on the processing

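Of 167 recomputed counts and medians, 131 stayed within their limits, which were wide for some. The limit for a median was an SD. Over all 6 arrays it was 0.33 in complex I and 0.56 in complex IV, beside medians of -0.06 and -0.09. A change of sign could therefore stay within the limit, and counts of 0 that stayed at 0 were included. The cause was not tested for the values outside their limits. The plain count of 0 members became 1 with the replicate block and a trended prior, an alternative added after the data were seen, and stayed 0 with the replicate block alone. The array-set count of 4 became 0 with array centring, a constant prior or no array-set term, 1 with the replicate block, 26 with replicates 1 and 2 alone, and 0 to 26 when 1 array was left out (26 without either replicate 3 array). The interaction count of 23 became 0 with a constant prior and 11 after quantile normalisation. The count over 93 genes of related lists went from 0 to 6 (6.45%) with the array-set term and trended prior. With array centring, medians in replicates 1 and 2 became -0.25, -0.30, -0.34, -0.25 and -0.26 for complexes I to V, and in replicate 3 they became 0.33, 0.31, 0.32, 0.20 and 0.18. After quantile normalisation those of replicate 3 were 0.046, 0.00852, 0.031, -0.0685 and -0.11. With the median of a gene's probe sets, complex II gave -0.094 in replicates 1 and 2 and 0.19 in replicate 3, and complex IV -0.088 in replicate 3. With 1 array left out, medians over all arrays turned positive for complex I (-0.23 to 0.09), complex II (-0.36 to 0.0016) and complex IV (-0.22 to 0.04), in each without normal array 3 and in I and II also without low array 1 or 2. Complex II ranged from -0.26 to -0.15 in replicates 1 and 2, and complex III from -0.25 to -0.21 there. Ndufb8 reversed with the median of its probe sets in the array-set limma fit, to -0.62 (adjusted p = 0.025). That median joins a bright probe set (mean 13.09) and a far dimmer one (mean 6.68). Of 156 recomputed values of called members, 70 lost the call and 0 changed sign.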
